A study of Mus musculus with 8 samples.

Results

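The Hox genes of clusters A to D encode homeodomain transcription factors that give cells their address along the head-to-tail axis. The members described here are 38 of the 39 Hox genes that the count file holds among its 46517 genes, taken by gene symbol from a fixed list and ordered by cluster and paralog number. The other is not analysed here. The study asked how loss of Ptk7, a transmembrane receptor-like protein of planar cell polarity signalling, alters gene expression in the Wolffian duct, the embryonic tube that becomes the epididymis and vas deferens. Epididymal ducts were dissected from E18.5 mouse embryos, and their RNA was sequenced in 8 libraries, and the reads were counted per gene. The 4 control libraries (numbered 1, 3, 4 and 6) came from Ptk7+/flox embryos, and the 4 libraries labelled conditional knockout (cKO 1, 2, 4 and 5) from Ptk7Xst87/flox embryos, in which Xst87 is a disrupted allele. Both groups also carried the T-Cre transgene and the mT/mG membrane-Tomato/membrane-EGFP allele, so the controls too had a floxed Ptk7 copy exposed to Cre. T-Cre acts in early mesoderm, from which the duct epithelium and its mesenchyme both derive, so the design does not restrict the deletion to one of them. Nothing in the labels says whether each library was 1 embryo or a pool, or which sex was taken, and p-values therefore measure only the spread between these libraries.

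Hox genes lie in 4 clusters, and genes at the same position in different clusters form a paralog group with closely related proteins. Genes at the 3' end of a cluster (low numbers, called anterior) are switched on earlier and further forward than genes at the 5' end (high numbers, called posterior). In the male tract, Hoxa10 and Hoxa11 are known from mutant mice to give the distal epididymis and vas deferens their identity, while group 13 genes pattern the urogenital sinus and genital tubercle, tail-ward of the duct.

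In the file's coordinates (GRCm38), the Hoxa members spanned 98.5 kb of chromosome 6 (52162417 to 52260880) on the minus strand. The Hoxb members spanned 173.9 kb of chromosome 11 (96194316 to 96368256), the Hoxc members 115.8 kb of chromosome 15 (102921103 to 103036852) and the Hoxd members 96.8 kb of chromosome 2 (74668310 to 74765142), all on the plus strand. Clusters A and B held 10 members each here, and clusters C and D held 9 each.

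The sequences of 4 neighbours in the posterior part of the Hoxd cluster are shown because they lie within 1 stretch of the chromosome and yet behaved differently between libraries below. Hoxd13 and Hoxd12 were far above the rest in 1 library (cKO 4). Hoxd10 was low in another (control 6) and moderately high in cKO 4, and Hoxd9 was abundant in every library. Each run holds 250 bases before the start of transcription and 50 bases after it, from RefSeq (GRCm38.p6), with CG dinucleotides in capitals.
Hoxd13 promoter (chr2:74667975-74668274, plus strand): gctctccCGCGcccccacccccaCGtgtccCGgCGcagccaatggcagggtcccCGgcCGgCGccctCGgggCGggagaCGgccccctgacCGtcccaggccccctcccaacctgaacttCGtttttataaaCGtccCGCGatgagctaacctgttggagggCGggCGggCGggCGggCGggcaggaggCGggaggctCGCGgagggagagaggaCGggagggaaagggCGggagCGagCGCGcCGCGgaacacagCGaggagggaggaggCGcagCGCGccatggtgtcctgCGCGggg
Hoxd12 promoter (chr2:74674763-74675062, plus strand): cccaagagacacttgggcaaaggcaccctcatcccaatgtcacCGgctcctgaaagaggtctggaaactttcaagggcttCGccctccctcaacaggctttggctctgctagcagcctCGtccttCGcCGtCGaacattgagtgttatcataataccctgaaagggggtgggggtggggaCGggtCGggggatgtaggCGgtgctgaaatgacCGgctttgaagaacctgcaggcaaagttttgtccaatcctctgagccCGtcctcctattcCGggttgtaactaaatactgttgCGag
Hoxd10 promoter (chr2:74691641-74691940, plus strand): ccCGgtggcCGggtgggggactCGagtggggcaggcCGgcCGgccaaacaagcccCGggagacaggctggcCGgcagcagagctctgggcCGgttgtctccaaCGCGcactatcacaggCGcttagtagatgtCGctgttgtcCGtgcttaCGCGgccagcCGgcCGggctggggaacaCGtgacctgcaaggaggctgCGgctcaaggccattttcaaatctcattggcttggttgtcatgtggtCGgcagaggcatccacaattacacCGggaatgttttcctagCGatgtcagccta
Hoxd9 promoter (chr2:74697513-74697812, plus strand): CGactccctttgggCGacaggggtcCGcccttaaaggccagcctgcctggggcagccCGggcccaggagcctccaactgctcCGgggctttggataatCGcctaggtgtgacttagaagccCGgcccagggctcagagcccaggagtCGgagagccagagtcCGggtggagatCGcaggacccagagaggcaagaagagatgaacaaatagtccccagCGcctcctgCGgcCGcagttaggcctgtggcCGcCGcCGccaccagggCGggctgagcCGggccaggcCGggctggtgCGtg

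The capitals stand close together in Hoxd13, which held 37 CG dinucleotides in its 300 bases, against 13 in Hoxd12, 22 in Hoxd10 and 20 in Hoxd9. The set of RefSeq promoters used here held 24 for 22 of the members. Clusters B and C were thinly covered in it, by Hoxb1, Hoxb4 and Hoxb8 and by Hoxc4. The median of the 24 was 14.5 CG dinucleotides, with a range from 4 to 45, against a median of 7 over all 32851 promoters of the set. The set gives Hoxd11, between Hoxd12 and Hoxd10, 2 promoters with 4 and 25, which are not printed. Both strands were searched for 4 short motifs, of which CCAAT and CAATAAA can overlap. The letters CCAAT were in 62.5% of the member promoters and 37.4% of all promoters. TATAAA was in 16.7% against 13.6%, CAATAAA, a core bound by posterior Hox proteins, in 8.33% against 4.60%, and TGATTTAT, a composite Hox-Pbx site, in 0% against 0.977%. These matches describe letters in short windows only, for the 22 members covered.

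The clusters also encode 2 families of microRNAs that sit between Hox genes and target Hox messages. They are shown, with the seed (bases 2 to 8) in capitals, to let the shared seed within each family be seen.
miR-10a-5p: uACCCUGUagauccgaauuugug
miR-10b-5p: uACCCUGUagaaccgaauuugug
miR-196a-5p: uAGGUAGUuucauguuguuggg
miR-196b-5p: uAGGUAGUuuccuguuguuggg

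The miR-10 genes lie in the Hoxb (10a) and Hoxd (10b) clusters, and the miR-196 genes in the Hoxb and Hoxc (both 196a) and Hoxa (196b) clusters. Among 85 annotated transcripts of the members, the stretch that paired best with miR-196a was in Hoxb8, at bases 2208 to 2229 of its annotated transcript, and all 22 bases paired, 21 of them as Watson-Crick pairs and 1 as a G:U pair. The stretch is shown to be read against miR-196a above.
Hoxb8 site for miR-196a: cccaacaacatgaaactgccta

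That site is the textbook target at which miR-196 cuts the Hoxb8 message. Hoxb8 itself was well expressed in these ducts, as given below. The libraries were not made for small RNA, and counts on the microRNA genes (78 in all for Mir196a-1, 3 for Mir10a, 0 for Mir10b and Mir196b) do not measure the mature forms.

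Before the results, 3 features of the libraries matter. Total counts ran from 24807970 to 29590547 per library. The targeted gene Ptk7 stood at 112.5 to 313 CPM (read counts scaled by library size and TMM factor) in the controls and at 7.33 to 12.5 CPM in cKO 1, 2 and 4, but at 194 CPM in the library labelled cKO 5. Since that level is inside the control range, results are also given without cKO 5. Control 3 was the highest of the 8 libraries in 24.4% of the genes tested and the lowest in 26.6%. The labelled tissue matched its markers. The 12 duct epithelium markers summed to 956 to 1124 CPM in controls and 814 to 1145 CPM in the knockout label, and the 8 mesenchyme markers to 11767 to 14989 and 13133 to 16709 CPM. Of the other lists, endothelium (377 to 420 against 334 to 469 CPM), macrophage (106 to 177 against 141 to 195 CPM) and erythroid genes (794 to 2267 against 1362 to 3963 CPM) were present, and multiciliated genes were low (10.32 to 19.996 against 12.02 to 15.95 CPM). Testis, kidney, skeletal muscle and gut or bladder lists summed to 11.7 CPM or less in every library, with 7 of 9, 5 of 7, 5 of 6 and 3 of 5 of their genes under 1 CPM throughout.

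In the control ducts, the highest Hox levels were in paralog groups 5 to 10, levels in groups 1 to 4 were mostly lower, and most members of groups 11 to 13 were near absent. Levels between genes are compared as RPKM, which divides CPM by the exon length in kilobases, over the 4 control libraries. Median levels were 1.32 RPKM for the 11 members of groups 1 to 4, 17.9 RPKM for the 11 of groups 5 to 8, 12.3 RPKM for the 7 of groups 9 and 10, and 0.057 RPKM for the 9 of groups 11 to 13. There were 13 members above 10 RPKM and 10 below 1 RPKM. The members made up 0.078% to 0.093% of the counts of each library. The median of the 32 members that passed the filter on low counts was 5.95 RPKM, beside 5.50 RPKM over all 16469 genes that passed. Hoxb5 (3.70 RPKM), Hoxa9 and Hoxd10 (5.78 RPKM), of groups 5 to 10, lay below the median of the members, and Hoxc4, of groups 1 to 4, above it. For all genes that passed, the 90th percentile was 41.0 RPKM.

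**Figure D1:**
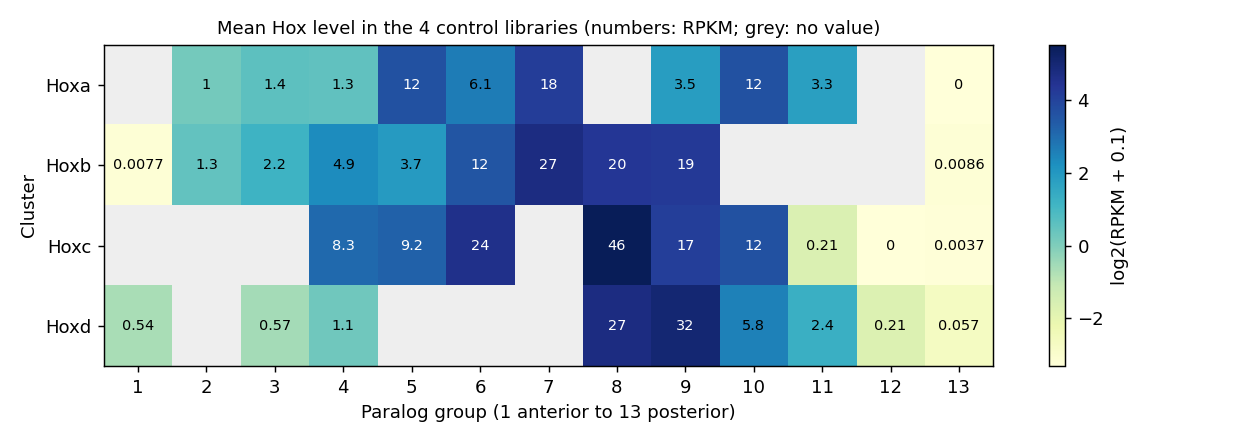
Mean level of each member in the 4 control libraries, by cluster (rows) and paralog group (columns, 1 to 13). Colour shows log2(RPKM + 0.1), each cell prints the RPKM, and grey marks positions with no gene or no value here. Levels are highest in the middle columns and fall to 0 or near 0 in groups 12 and 13.

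Hoxc8, which patterns the thoracic skeleton and its motor neurons, was the most abundant member at 46.1 ± 8.65 RPKM (SD, n = 4). Its control libraries stood at 132.9, 111.9, 112.9 and 164 CPM (in the order 1, 3, 4, 6) and the knockout label at 112.7, 145.9, 126.4 and 96.0 CPM (in the order cKO 1, 2, 4, 5), and the ranges overlapped. Hoxd9, a group 9 gene that with its paralogs patterns the hindlimb level, followed at 32.4 ± 6.58 RPKM. The next members were Hoxb7, whose promoter is widely used to drive transgenes in the Wolffian duct and ureteric bud, at 26.9 ± 3.09 RPKM, and Hoxd8 at 26.9 ± 1.37 RPKM. Neighbours in this order mostly could not be separated: of the 37 pairs of adjacent members, 30 had overlapping control ranges and 7 did not.

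Hoxc6 (24.0 ± 2.76 RPKM), Hoxb8 (19.98 ± 1.85), Hoxb9 (19.0 ± 4.25), Hoxa7 (17.9 ± 2.92) and Hoxc9 (17.2 ± 1.68), all trunk patterning genes, formed a continuous series with overlapping ranges. Below Hoxc9 came the first gap in the order, since the lowest control for Hoxc9 (15.7 RPKM) lay above the highest for Hoxa5 (13.3 RPKM). Hoxa5, known for lung and axial skeleton phenotypes, stood at 12.4 ± 0.96 RPKM, level with Hoxa10 (12.3 ± 3.58) and Hoxc10 (12.3 ± 4.89). The highest member of each cluster was Hoxa7, Hoxb7, Hoxc8 and Hoxd9.

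Hoxa9 did not follow its neighbours per length, at 3.46 ± 0.14 RPKM between Hoxa7 and Hoxa10. Its annotated exons sum to 5580 bases, and in CPM it stood at 19.3 ± 0.77, closer to Hoxa10 at 40.4 ± 11.7. The fall towards the 5' end was steep after group 10. In group 11, Hoxa11 (3.31 ± 1.14 RPKM) and Hoxd11 (2.37 ± 1.04 RPKM) were low and Hoxc11 (0.21 ± 0.032 RPKM) far lower. Hoxd12 stood at 0.21 ± 0.081 RPKM and Hoxd13 at 0.057 ± 0.018 RPKM.

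Among the anterior genes, Hoxb1 was at or near 0 and the others were detected. Hoxc4 (8.31 RPKM) and Hoxb4 (4.85 RPKM) led, then Hoxb3 (2.16), Hoxa3 (1.41), Hoxa4 (1.34), Hoxb2 (1.32), Hoxd4 (1.10) and Hoxa2 (1.04 RPKM), and Hoxd3 (0.57) and Hoxd1 (0.54 RPKM). These genes are best known for patterning the hindbrain and neck. Some of these values are uncertain, because 62.8% of Hoxd3, 52.9% of Hoxb3 and 52.3% of Hoxd4 exon bases are shared with another annotated gene (Hoxd3os1, Hoxd4 and Haglr among them for Hoxd3, and the antisense Hoxb3os for Hoxb3). Whether counting used strand is not given in the sources used here, so reads from such genes cannot be told apart.

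The filter left out 6 members. Over all 8 libraries together, Hoxc12 had 0 counts, Hoxa13 had 1, Hoxb13 had 2, Hoxb1 and Hoxc13 had 3 each, and Hoxd13 had 69. A count of 0 allows a level of up to 0.121 CPM in the smallest library, for counting error only. Of the group 13 genes, which mark the cloacal and genital end of the tract, Hoxd13 alone stood above that limit by more than a few counts, and 48 of its 69 counts came from cKO 4.

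No Hox gene was called between the knockout label and control. With edgeR's quasi-likelihood test over all 8 libraries, 0 of 32 tested members had a Benjamini-Hochberg adjusted p under 0.05 (the smallest was 0.552), where 0% of all 16469 genes passed. At an unadjusted p under 0.05, 2 members were higher, beside 3.5% of all genes, and 0 were lower, beside 4.87%. DESeq2, another count model, also called 0 of the 31 members to which it gave an adjusted p, where it called 1.14% of genes. At an unadjusted p under 0.05, 2 of the 35 members with a DESeq2 p were higher and 0 lower. Of 26557 genes with a DESeq2 p, 1487 passed in either direction. Log2 fold changes (knockout label over control) were above 0 in 21 of 32 members with a median of 0.08, beside 51.4% and 0.0055 over all genes tested. Without cKO 5 they were above 0 in 22 of 32 members with a median of 0.19. Without cKO 4 they were above 0 in 19 of 32 with a median of 0.05. The medians over all genes were then 0.0073 and 0.0032, and the shares of all genes above 0 are not reported here. Without cKO 5, edgeR again called 0 of 32 members, where 0.00599% of genes (Ptk7 alone) passed, and 2 members were higher at an unadjusted p under 0.05, beside 3.74% of genes, and 0 lower, beside 5%. Without cKO 4, 0 of 32 were called, where 0% of genes passed, 0 were higher at an unadjusted p under 0.05, beside 2.72% of genes, and 1 (Hoxd12) was lower, beside 4.23%.

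Among the abundant members the differences were small. For the 10 with the highest control RPKM, log2 fold changes lay between -0.25 (Hoxb9, SE 0.17) and 0.21 (Hoxd9, SE 0.13), with 5 above 0, and every pair of ranges overlapped. Hoxd8, the steadiest of them, stood at 75.6, 76.7, 74.3 and 68.3 CPM in the controls and 74.8, 81.4, 79.2 and 71.4 CPM in the knockout label, a log2 fold change of 0.06 ± 0.07 (SE). Hoxb9 stood at 47.1, 61.7, 51.6 and 35.3 CPM in the controls and 39.5, 50.6, 33.3 and 41.7 CPM in the knockout label. Without control 6 its log2 fold change was -0.37 (unadjusted p = 0.025, edgeR adjusted p = 0.459).

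Hoxa9 was the member whose groups stood apart. This gene, known with its group 9 paralogs for male tract and hindlimb-level patterning, had 19.996, 20.009, 18.65 and 18.68 CPM in the controls and 21.8, 20.3, 24.1 and 22.5 CPM in the knockout label. Every knockout-label library was above every control, cKO 2 barely so, and Hoxa9 was the only 1 of the 32 tested members without overlap, beside 5.76% of all genes. Its log2 fold change was 0.20 ± 0.083 (SE), with an unadjusted p of 0.037 and an edgeR adjusted p of 0.554, and it was 0.19 (adjusted p = 0.602) without cKO 5.

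**Figure D2:**
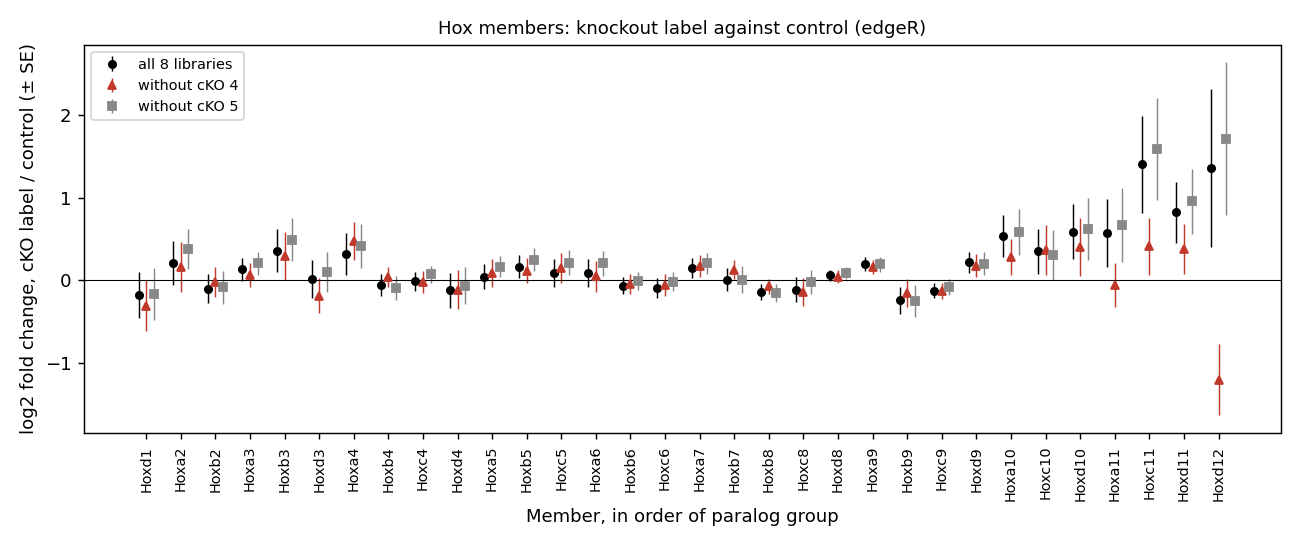
Log2 fold change of the 32 tested members, knockout label over control, with bars of 1 SE from edgeR, in order of paralog group. Black circles use all 8 libraries, red triangles leave out cKO 4 and grey squares leave out cKO 5. Up to group 9, estimates with all 8 libraries lie between -0.25 (Hoxb9) and 0.36 (Hoxb3), the latter level with Hoxc10 of group 10 (0.35). The positive values of groups 11 and 12 shrink or turn without cKO 4.

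Median fold changes were larger in the posterior groups, and that of groups 11 to 13 rested on 1 library. Median log2 fold changes were 0.00 for the 10 tested members of groups 1 to 4, 0.04 for the 11 of groups 5 to 8, 0.21 for the 7 of groups 9 and 10, and 1.09 for the 4 of groups 11 to 13. Without cKO 4 the 4 medians were 0.0088, 0.04, 0.17 and 0.16, with 2 of 4 members of groups 11 to 13 above 0. The division into bands was chosen after the members' values were known, and no test was made of them. By cluster, 9 of 9 tested members were above 0 in A (median 0.20), 3 of 8 in B (-0.06), 3 of 7 in C (-0.02) and 6 of 8 in D (0.14), beside 51.4% of all genes. Without cKO 4 these counts were 8, 4, 3 and 4. Neither the bands nor the clusters are reported here without cKO 5.

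The posterior members differed between libraries within each group. Hoxd12, expressed in the distal limb and genital tubercle, had 16, 8, 13 and 20 counts in the controls and 6, 6, 122 and 5 counts in cKO 1, 2, 4 and 5. Hoxd13, whose mutation causes limb malformation (synpolydactyly), had 3, 4, 6 and 3 counts in the controls and 3, 0, 48 and 2 in the knockout label. In both genes cKO 4 stood alone, and for Hoxd12 it was at 17.5 times the median CPM of the other 7 libraries.

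The group 11 genes repeated this with smaller ratios. Hoxc11 had 0.51, 0.40, 0.45 and 0.37 CPM in the controls and 0.73, 0.34, 2.86 and 0.65 CPM in the knockout label. Hoxa11, needed for vas deferens and uterus identity, had 8.30, 4.89, 10.9 and 6.21 CPM in the controls and 7.10, 5.88, 23.1 and 8.83 CPM in the knockout label. Hoxd11, which acts with Hoxa11 in kidney induction, had 12.7, 5.46, 14.6 and 7.13 CPM in the controls and 14.8, 11.6, 31.6 and 12.4 CPM in the knockout label. Again cKO 4 was the highest in each, at 6.33 (Hoxc11), 3.25 (Hoxa11) and 2.54 times (Hoxd11) the median of the others. In Hoxa11, cKO 1, 2 and 5 lay inside the control range. In Hoxd11, cKO 1 lay just above it, and in Hoxc11, cKO 1 and 5 lay above it and cKO 2 below. Of the Hoxa11 exon bases, 35.0% overlap the antisense gene Hoxa11os, whose 48, 51, 59 and 19 counts in the controls and 52, 24, 190 and 56 in the knockout label were highest in the same library.

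In group 10 the ratios were smaller still, and a second library stood out. Hoxa10, the gene tied to distal epididymis identity, had 40.1, 46.9, 50.5 and 24.0 CPM in the controls and 54.4, 40.7, 86.8 and 52.2 CPM in the knockout label. Hoxd10, a hindlimb motor neuron gene, had 10.2, 12.8, 14.9 and 4.19 CPM in the controls and 17.0, 9.996, 21.5 and 14.6 CPM in the knockout label. Hoxc10 had 25.7, 26.3, 32.02 and 10.2 CPM in the controls and 33.0, 25.1, 29.0 and 32.9 CPM in the knockout label. Control 6 was the lowest of the 8 libraries in all 3, at 0.48 (Hoxa10), 0.35 (Hoxc10) and 0.29 times (Hoxd10) the median of the others. In cKO 4, Hoxa10 (1.85 times) and Hoxd10 (1.69 times) were highest, and Hoxc10 was not (1.10 times).

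**Figure D3:**
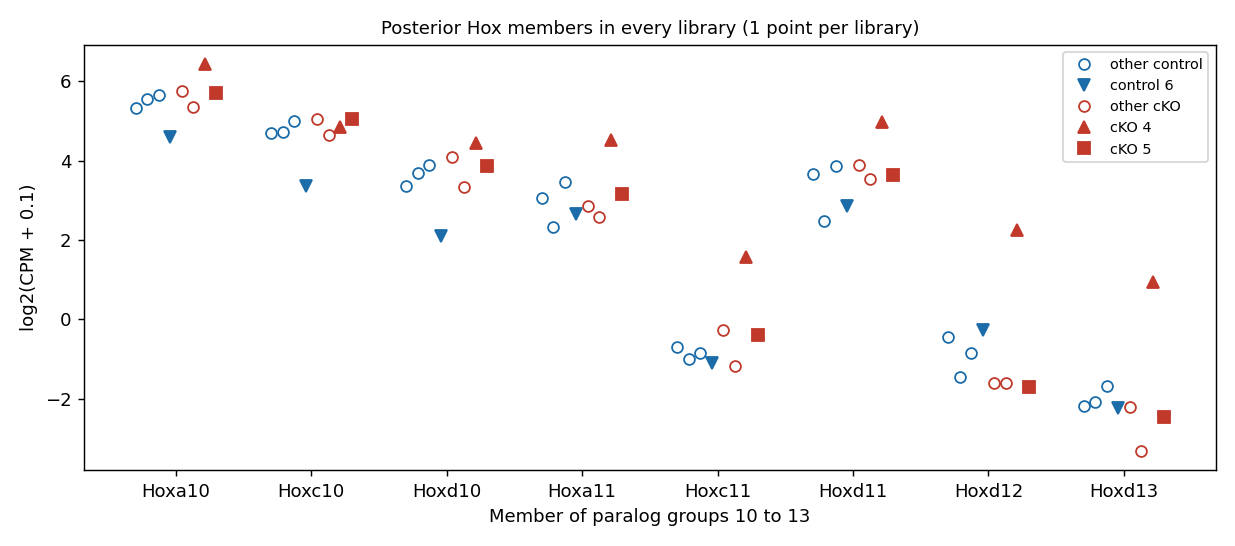
Level of 8 members of groups 10 to 13 in each library, as log2(CPM + 0.1), 1 point per library. Blue marks controls (filled downward triangle, control 6) and red the knockout label (filled upward triangle, cKO 4; filled square, cKO 5; open circles, the others). The cKO 4 points stand apart most in Hoxd12 and Hoxd13, and control 6 is lowest in the 3 group 10 genes.

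Outside the posterior members these libraries went both ways. cKO 4 was the highest of the 8 libraries in 6 of the 7 tested members of groups 10 to 13 and in 3 of the 25 of groups 1 to 9, beside 15.9% of all genes. Control 6 was the lowest in 3 of the 7 and in 2 of the 25, beside 8.42% of all genes. In groups 1 to 9, cKO 4 was also the lowest in 5 of the 25, all in cluster B (Hoxb2, Hoxb4, Hoxb7, Hoxb8 and Hoxb9, at 0.71 to 0.81 times the median of the others), and its cluster B share was the lowest at 17.9% of Hox CPM, against 21.5% to 25.7%. Control 6 was the highest in Hoxc6, Hoxc8 and Hoxc9, though in Hoxc6 only just (63.6 CPM, against 63.4 CPM in cKO 2). Its cluster C share was also the highest, at 41.3%, against 31.5% to 36.2%. The shares of all genes in which cKO 4 was lowest, or control 6 highest, are not reported here. Neither result can therefore be read against such a share. The library labelled cKO 5 showed another profile, being the lowest in 9 of the 25 members of groups 1 to 9, beside 12.2% of all genes, with a median ratio of 0.89.

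**Figure D4:**
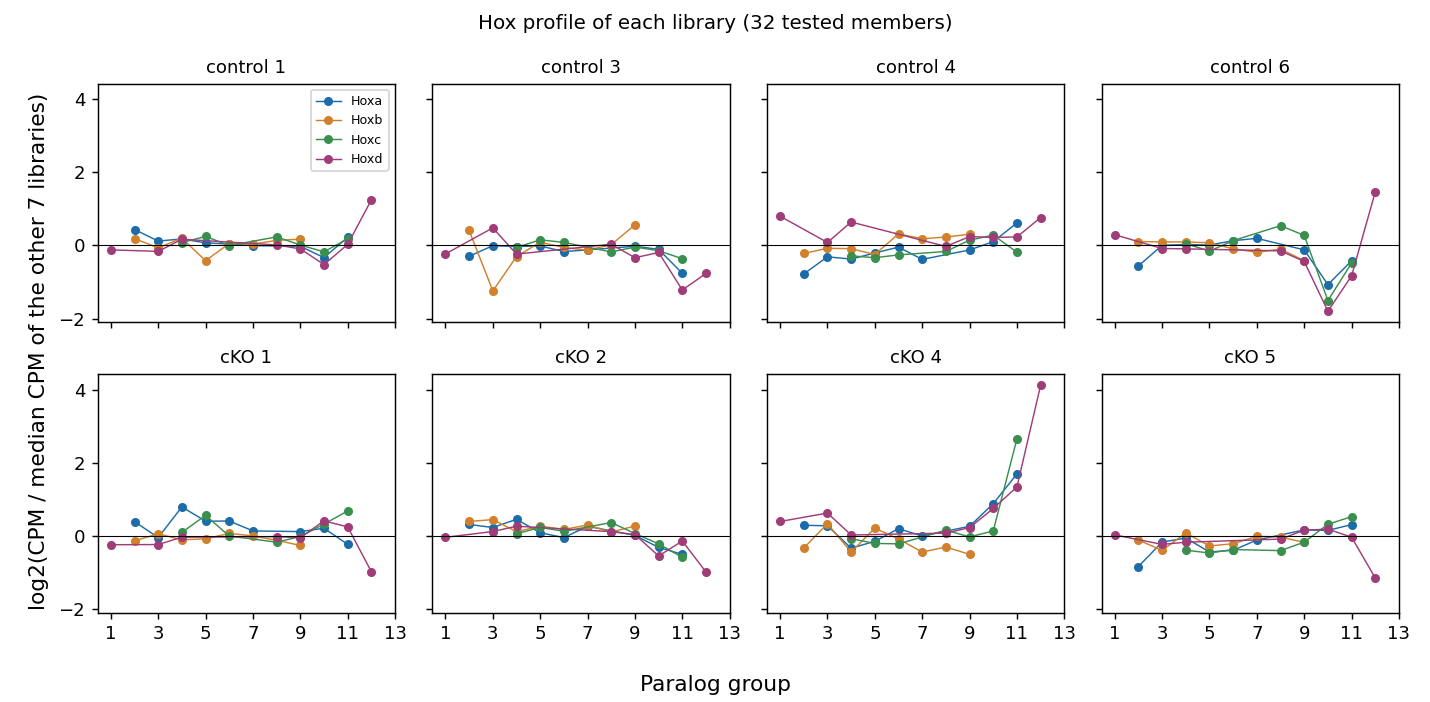
Profile of each library over the 32 tested members, with paralog group on the x axis and log2 of the CPM over the median CPM of the other 7 libraries on the y axis. Lines join members of 1 cluster. The profile of cKO 4 climbs from group 10 to Hoxd12, and control 6 dips at group 10 before Hoxd12.

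Median spread among the controls alone was larger in groups 10 and 11 than in groups 1 to 9. The coefficient of variation over the 4 controls had a median of 11.9% for the 21 members of groups 1 to 9 with a mean of at least 3 CPM, near the 10.1% of all genes above that level. Those members of groups 1 to 9 ran from 3.99% to 33.3%, which overlapped group 10. The median was 39.6% for the 3 members of group 10 (29.0% to 44.0%) and 39.2% for Hoxa11 and Hoxd11. For all genes the 95th percentile was 28.9%. Without control 6 the group 10 median was 12.4% and the group 11 median 40.8%, so group 10 varied through control 6 and group 11 did not.

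As shares of all Hox CPM, groups 11 to 13 made up 2.59%, 1.36%, 3.10% and 1.804% in the controls and 2.62%, 1.96%, 6.93% and 2.82% in the knockout label. The means were 2.22% ± 0.78 and 3.58% ± 2.26 (SD, n = 4 each), and 2.47% for the knockout label without cKO 4. Group 10 made up 8.84%, 10.497%, 11.4% and 4.74% against 11.9%, 8.23%, 14.9% and 12.6%. Groups 5 to 8 made up 54.7% to 65.4% in controls and 50.8% to 60.9% in the knockout label. Cluster shares were 19.1% and 21.9% for A, 24.2% and 21.9% for B, 36.4% and 33.6% for C, and 20.3% and 22.6% for D, in control and knockout label. Every one of these shares overlapped between the groups.

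In the test of the knockout label, the 2 libraries decided the posterior estimates. For Hoxc11, the log2 fold change of 1.40 ± 0.59 (SE, unadjusted p = 0.037, edgeR adjusted p = 0.552) became 0.41 ± 0.34 without cKO 4. For Hoxd11, 0.82 ± 0.37 (edgeR adjusted p = 0.599) became 0.38 without cKO 4 and 0.96 without cKO 5 (unadjusted p = 0.037, edgeR adjusted p = 0.536). For Hoxa11, 0.57 ± 0.41 became -0.06 without cKO 4. Hoxd12 turned over, from 1.36 ± 0.96 with all libraries to -1.21 ± 0.43 without cKO 4 (unadjusted p = 0.020, edgeR adjusted p = 0.642), since the 5 or 6 counts of cKO 1, 2 and 5 lie below every control. In group 10, Hoxa10 (0.54 ± 0.25, edgeR adjusted p = 0.623), Hoxd10 (0.59 ± 0.33) and Hoxc10 (0.35 ± 0.27) became 0.35, 0.32 and 0.10 without control 6. Without cKO 4 they were 0.28, 0.40 and 0.36.

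Marker levels also differed between libraries. In cKO 4 the duct epithelium list (814 CPM, against 870 to 1145 in the others) and the smooth muscle list (2541 CPM, against 2958 to 3880) were lowest, and the neuron and Schwann cell list was highest (137 CPM, against 74.7 to 112). Its leading gene Stmn2 gave 74.0 CPM of this, and without Stmn2 the list stood at 62.6 CPM in cKO 4 and 63.6 CPM in cKO 2. In control 6 the duct epithelium (956 CPM) and smooth muscle (3254 CPM) lists lay inside the range of the others. Its neuron and Schwann cell list was lowest (74.7 CPM). Of that list, Th, a marker of catecholamine neurons, was under 1 CPM in every library. Between the groups, mesothelium genes summed to 542 to 643 CPM in controls and 691 to 901 CPM in the knockout label, with 5 of 7 higher at an unadjusted p under 0.05, beside 3.5% of all genes. Smooth muscle genes summed to 3254 to 3880 and 2541 to 3237 CPM, with 4 of 8 lower, beside 4.87% of all genes, and 1 higher. At that p, 8 of 12 duct epithelium genes were lower and 3 neuron and Schwann cell genes were higher. The part of cell composition, or of where the duct was cut, in the Hox values was not tested, and in bulk tissue fewer cells of a type and less RNA per cell cannot be told apart.

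Hox proteins bind DNA with TALE homeodomain partners of the Pbx, Meis and Pknox families, and 8 of the 9 listed genes had a log2 fold change above 0, beside 51.4% of all genes. At an unadjusted p under 0.05, 3.5% of all genes were higher and 4.87% lower, and the counts of each list below are to be read against these shares. None of the 9 was called by edgeR, 2 were higher and 0 lower at an unadjusted p under 0.05, and the median log2 fold change was 0.07. Meis1 had 144, 139, 133 and 145 CPM in the controls and 166, 159, 173 and 162 CPM in the knockout label, without overlap, as in 5.76% of all genes. Its means were 139.9 ± 5.45 and 165 ± 6.25 CPM (SD, n = 4 each), a log2 fold change of 0.24 ± 0.065 (SE, edgeR adjusted p = 0.302), and DESeq2 called it (adjusted p = 0.0385 with all libraries, 0.101 without cKO 5). Meis2 (0.24 ± 0.11, unadjusted p = 0.048) was highest in cKO 4 at 195 CPM, against 125 to 151 CPM elsewhere, and its fold change was 0.12 without that library. Pbx2 had a log2 fold change of 0.28 ± 0.14, with control 3 low at 66.5 CPM, against 104 to 125 CPM elsewhere, and was 0.14 without that library.

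Of 10 genes that regulate the switching on of Hox clusters (Cdx factors, retinoic acid receptors, Gdf11, Cyp26a1 and others), 6 were tested. Of these, 0 were called by edgeR and 1 was higher at an unadjusted p under 0.05, with a median log2 fold change of 0.17. That gene was Rarb, a retinoic acid receptor and itself a target of retinoic acid, with 24.1, 28.03, 25.02 and 23.6 CPM in the controls and 36.3, 33.3, 32.9 and 26.6 CPM in the knockout label. Its lowest knockout-label value was cKO 5, inside the control range. The log2 fold change was 0.36 ± 0.10 (edgeR adjusted p = 0.354). Without cKO 5 it was 0.44 with edgeR (adjusted p = 0.214) and 0.44 with DESeq2 (adjusted p = 0.0107). Rarg (0.23 ± 0.11) and Gdf11 (0.27 ± 0.20), which sets the trunk-to-tail boundary, overlapped between the groups. Gdf11 was highest in cKO 4 (28.5 CPM, against at most 20.6 elsewhere) and its fold change was 0.083 without that library, and that of Rarg was 0.13 without control 3.

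The chromatin genes that hold Hox clusters silent (Polycomb) or open (trithorax) had a median change near that of all genes. Of 36, 0 were called by edgeR, 1 was higher and 0 lower at an unadjusted p under 0.05, and the median log2 fold change was -0.03. Phc2, a Polycomb subunit, had a log2 fold change of 0.14 ± 0.076 and Rnf2, the catalytic ubiquitin ligase of the complex, one of -0.13 ± 0.071 (SE).

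Among 17 noncoding genes of the clusters, 16 were found and 8 tested, 0 were called by edgeR and 0 passed an unadjusted p under 0.05, with a median log2 fold change of 0.12. Hoxa11os had the smallest p, at 0.97 ± 0.56 (unadjusted p = 0.109), and resting on cKO 4 it became 0.12 without that library. Hoxb5os (0.22) and Hoxb3os (0.28) followed. Haglr and Hoxd3os1, in the anterior part of cluster D, had 1091 and 1882 counts over the 8 libraries. Hotair, from the posterior part of cluster C, had 7, and Hottip, at the 5' end of cluster A, had 0.

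Genes that flank the clusters showed no called difference either. Of 21, 19 were found and 15 tested, 0 were called by edgeR and 0 passed an unadjusted p under 0.05, with a median log2 fold change of -0.09. Skap1 (-0.32 ± 0.17), Cbx5 (-0.16 ± 0.086) and Lnpk (-0.21 ± 0.12) had the smallest p. Evx2, which borders Hoxd13, had 1 count in all, and it was in cKO 5 and not in cKO 4.

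Of 15 genes that act with Hox factors in urogenital development, 14 were tested, 0 were called by edgeR, 0 were higher and 3 lower at an unadjusted p under 0.05, with a median log2 fold change of -0.04. The 3 were duct epithelial signals and factors. Pax2, a regulator of duct identity, had a log2 fold change of -0.41 ± 0.18 (unadjusted p = 0.045, edgeR adjusted p = 0.586). Bmp7 stood at -0.27 ± 0.11 and Wnt9b, the ligand by which the duct signals to its mesenchyme, at -0.31 ± 0.14. Pax2 is also in the duct epithelium list, of which 8 of 12 genes were lower at that p. Across all 6 lists, 0 of 88 tested genes were called by edgeR.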

How the data were processed

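RNA-seq counts of 8 libraries (4 control, 4 labelled knockout, E18.5 epididymal ducts) were used. The authors deposited raw counts per gene and exon lengths, and the submitters' processing notes name STAR, featureCounts and GRCm38. Neither versions nor the strand setting were available from the sources used here. All 38 members had the same interval as in GENCODE M21. Of 46517 genes, 512 had no symbol. No 2 libraries were duplicates: over the 28 pairs, chi-square divided by its degrees of freedom was 13.7 to 81.7.

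Counts were tested with edgeR 4.0.16 in R 4.3.3 (TMM, filterByExpr, quasi-likelihood F test, all 8 libraries, Benjamini-Hochberg over 16469 genes at 0.05) and with DESeq2 1.42.0. SEs are the fold change over the square root of F. CPM and RPKM were computed from the counts, for description. The biological coefficient of variation was 15.2%. The fit was tested on simulated data. Alternatives were other scalings, no filter, DESeq2, a block on library number and leaving out each library. Leaving out cKO 4 with cKO 5 or with control 6, and DESeq2 without cKO 5, were chosen after seeing the data. Members, lists and bands were chosen with earlier results of these data known. Named members were the 10 highest, those at an unadjusted p under 0.05 with or without cKO 5, and the highest of groups 9, 10, 11 and 13, and the 3 smallest p of each list, of which some values are not reported here. Hoxa9 and Hoxc11 passed that p with all libraries. The other members of groups 10 to 12 and Hoxb9's value without control 6 were named after their values were seen. Sequences came from RefSeq (GRCm38.p6) and, for the Hoxb8 site, GENCODE transcripts.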

Additional observations from a re-analysis of the deposited data

Results flagged for a closer look

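A library was singled out where its gap to the nearest library of its group exceeded 0.829 of the group's range, which chance gives in about 1 of 20 groups, and 74 groups of members were examined. In the knockout label, cKO 4 stood apart as high in Hoxd11 (31.6 CPM, nearest 14.8), Hoxc11 (2.86, nearest 0.73), Hoxd12 (4.66, nearest 0.23) and Hoxd13 (1.83, nearest 0.12). The same library stood apart as high in 193 of all tested genes (1.17%). Hoxa2 was low in cKO 5, at 1.31 CPM with the nearest at 2.33. Hoxb3 was low in control 3, at 4.63 CPM with the nearest at 10.4, and control 3 was low in this way in 3.55% of all tested genes. Over 52.9% of the Hoxb3 exon bases, Hoxb3os is annotated on the other strand.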

How the results depend on the processing

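No Hox member was called under any of the 16 alternatives, and 24 of 27 fold changes of named genes kept their direction in all of theirs. Among the listed partner genes, 1 was called with DESeq2 (Meis1) and 1 with DESeq2 without cKO 5 (Rarb), against 0 with edgeR. With all libraries DESeq2 called 1.14% of all genes with an adjusted p, and the share without cKO 5 is not reported here. Hoxa11 turned to -0.059 without cKO 4 (leave-one-out range -0.059 to 0.80), to -0.22 without cKO 4 and 5 and to -0.14 without cKO 4 and control 6. Hoxd12 turned to -1.21 without cKO 4 (range -1.21 to 1.71) and to -1.15 without cKO 4 and 5. It did not pass the filter without cKO 4 and control 6. Hoxa11os turned to -0.12 without cKO 4 and 5 and also to -0.12 without cKO 4 and control 6. The cause was not tested beyond the library left out. Members higher at an unadjusted p under 0.05 numbered 0 to 5 when 1 library was left out. The share of all genes was 3.74% without cKO 5 and 2.72% without cKO 4, and is not reported here for the others. The difference in posterior share (knockout label minus control) was 1.37 percentage points for groups 11 to 13, 0.25 without cKO 4 (range 0.25 to 1.91), and 3.82 with groups 9 and 10 added, or 2.04 then without cKO 4. Numbers 1 and 4 occur in both groups, and the deviations of same-numbered libraries correlated at -0.0916 and 0.0226, so they were not taken as pairs. With the replicate block over those libraries, 0 members and 0 partner genes were called, with 4 members higher and 2 lower at an unadjusted p under 0.05. In that fit, 1508 of 16661 genes passed that p in either direction and 7 genes were called. With 0 to 6 counts outside cKO 4, Hoxd13 is limited by depth.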

Other observations

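Genes that marked a single library were few in most libraries and many in control 3. Over the whole file, 4 genes above 1 CPM in cKO 4 were more than 4-fold above the highest other library. They were Hoxd13, Hoxd12, Gm13394 (152.5 CPM, against at most 1.06 elsewhere) and C1s2 (1.53 CPM). Hoxd12 (at most 0.74 CPM elsewhere) and Hoxd13 (at most 0.21 CPM) passed the 1 CPM floor only through cKO 4. The Hox values in this list and in that of control 6 below are those already described, so the lists add no separate support. In control 6, 8 genes were more than 1.8-fold below the lowest other library, where that was above 3 CPM. Hoxd10 and Hoxc10 were 2 of them, beside Rxfp2, the receptor of the testis hormone INSL3 (2.02 CPM, against 4.70 to 8.74 elsewhere), Pnoc, Rpl21 and 3 pseudogenes or predicted genes. In control 3 the same rule gave 254 genes, 1 of them a Hox member. In control 4, the rule for high genes gave 14 genes, 0 of them Hox members.

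Inside the Hoxb span, the pseudogene Gm11539 (chromosome 11, 96248633 to 96249189) had 18896 counts over the 8 libraries, more than Hoxb8 (10764) or any other Hoxb member. A processed pseudogene shares sequence with its parent gene, so its counts are uncertain. Evx1, the homeobox gene beyond the 5' end of cluster A, had 40 counts in all, 17 of them in cKO 5 and at most 7 in any other library.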
